A study of Mus musculus with 12 samples.

Results

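NF-κB and TNF receptor signalling was examined in mouse megakaryocytes, the platelet-forming cells of the marrow, after exposure to the synthetic glucocorticoid dexamethasone. The genes were 39 named components of the pathway, listed by name. They were NF-κB subunits, their IκB inhibitors, the kinases above them, TNF receptors with adaptors, ubiquitin-editing brakes with partners, inhibitors of apoptosis and target genes. Of these, 35 had a probe set with exactly 1 gene symbol, out of 30142 named genes in all, and Nfkb1, Chuk, Ripk1 and Traf3 had none in the annotation used here. Where a gene had several probe sets, the brightest over the 12 arrays was read.

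The cells came from bone marrow hematopoietic stem cells of male C57BL/6 mice. They had 3 days in thrombopoietin (100 ng per ml), a night in 10% charcoal-stripped serum, and purification on an albumin gradient at day 4. All cultures shared these steps, so both groups are thrombopoietin-driven cells matured in a dish. Each of 6 cultures was divided between vehicle and 100 nM dexamethasone for 6 h, giving 6 arrays per group. The cultures are numbered 1 to 6 here, which stand, in that order, for the numbers 1, 4, 5, 6, 7 and 8 of the labels. The labels do not tie a culture to an animal, so p-values measure the spread between these cultures, which may be technical.

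NF-κB is a family of dimeric transcription factors held in the cytoplasm by IκB proteins. When TNF or a Toll-like receptor ligand binds, adaptors and ubiquitin chains activate the IκB kinase complex, IκB is degraded and NF-κB moves to the nucleus. Among the genes it then switches on are those of its own brakes, the IκBα gene Nfkbia and the A20 gene Tnfaip3. Glucocorticoids are known for restraining this pathway in immune cells. Megakaryocytes carry its components and pass several of them to platelets.

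After 6 h of dexamethasone the pathway did not move in 1 direction. Of the 35 measured members 5 rose, 5 fell and 25 did not pass the threshold, an adjusted p under 0.05 in limma with culture as a block. The rises were those of Tnfaip3, Nfkbia, the TNF receptors Tnfrsf1a and Tnfrsf1b, and the deubiquitinase gene Cyld. The falls were those of Birc2, Tnip3, Tnfaip2, Traf5 and Rel. The 10 calls were 28.6% of the members, beside 12.0% of the 24265 genes tested. With a stricter filter, at the 50th percentile of the array, 12 of 33 members were called, beside 3351 of 16442 genes. The shares thus depend on how many dim genes are tested. By direction, 7.39% of all tested genes rose and 4.56% fell. The median change of the members was -0.008 on the log2 scale, and that of all tested genes was -0.013. After quantile normalization of the arrays the split of members was 3 higher and 9 lower, and it was 5 and 4 after centring each array on its median. Over all tested genes 1794 rose and 1106 fell, against 1417 and 1738 after quantile normalization and 1718 and 726 after centring.

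**Figure D1:**
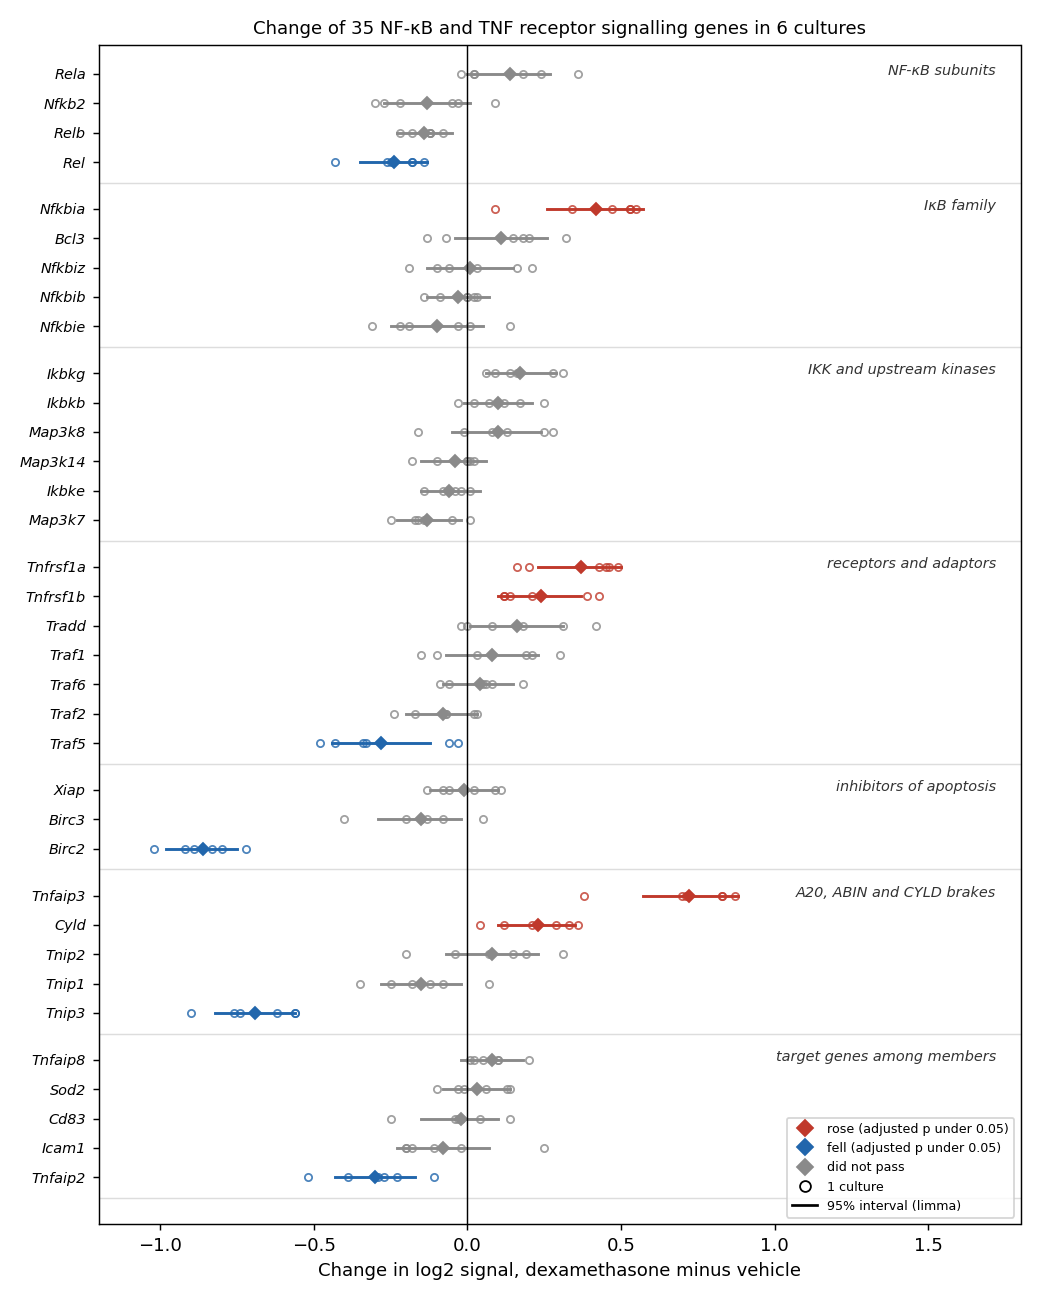
Change in log2 signal (dexamethasone minus vehicle, x axis) of the 35 measured members, grouped by role. Open circles are the 6 cultures, diamonds the mean and lines the 95% interval from limma, with red for genes that rose, blue for genes that fell and grey for genes that did not pass. Birc2, Tnip3 and Tnfaip3 lie farthest from 0.

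Signal was compared with the array's own negative controls, whose median lay between 6.15 and 6.39 on the 12 arrays. Of the members, 25 lay above that median on all arrays and 5 on some: Bcl3, Ikbke, Tnfrsf1a, Tnfrsf1b and Traf1. Nfkbie, Map3k8, Map3k14, Cd83 and Icam1 lay below it on all arrays, and changes of these 5 may not show. Only Rela, Map3k7, Birc2 and Tnfaip8 exceeded the 95th percentile of the controls (9.98 to 10.39) on all 12 arrays. The glucocorticoid response was present in the same arrays: 7 of 8 textbook targets rose, from 2.36-fold for Per1 to 5.57-fold for Tsc22d3. The other, Sgk1, differed by -0.01 (adjusted p = 0.875 in limma). It lay below the control median on all arrays, so a change may not show. Of 10 megakaryocyte markers matched, none lay below the control median on all arrays. Of these, Tubb1, the platelet tubulin, fell by 1.14 (adjusted p = 4.71e-06) and Gp9, part of the von Willebrand factor receptor, rose by 0.44 (adjusted p = 0.00143). The mean level of the 10, in which these opposite changes are averaged, was 15.81 to 16.03 in vehicle and 15.75 to 16.02 in dexamethasone. Of 9 neutrophil markers tested, 4 fell (S100a8, S100a9, Camp and Ltf) and 5 did not pass. The groups overlapped in all 4, and Ltf lay above the control median on only 2 of 6 vehicle and 0 of 6 dexamethasone arrays. The mean level of the 10 neutrophil markers matched was 6.77 to 7.66 in vehicle and 6.26 to 7.39 in dexamethasone. Elane and Cebpe lay below the control median on all arrays. Of the markers tested, 1 of 10 for monocytes and macrophages fell and 1 of 8 for lymphocytes rose. Of 6 for mast cells and basophils, 2 rose (Cpa3 and Kit) and 1 fell (Mcpt8). For erythroid cells 0 of 3 passed in limma, where 1 had an unadjusted p under 0.05. Beside these counts, 7.39% of all tested genes rose and 4.56% fell. In bulk RNA, fewer cells of a type and less RNA per cell cannot be told apart, and the part of other cells in the members' changes was not tested.

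RefSeq promoters (GRCm38.p6, 250 bases before to 50 after a start) were given for 31 of the 39 genes, with 41 starts. They are described because these genes include known targets of NF-κB itself. A loose form of the κB site, GGG then 5 bases of any kind then CC, was searched on both strands with overlapping matches counted. It occurred in 50.8% of all 32851 promoters and in 53.5% of genes with any promoter, and at 26 of the 31 members and 9 of the 10 called members. Among the called members, Birc2 was the exception, with no match at either of its starts. A full glucocorticoid element, AGAACA then 3 bases of any kind then TGTTCT, was found in 3 of all promoters and at no member. Its arm AGAACA, searched on both strands, occurred in 19.0% of all promoters and in 21.3% of genes with any promoter, and at 3 of the 31 members, Tnfaip3, Ikbkg and Xiap. In Tnfaip3 it lay 11 bases before another annotated start than the one shown.

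The sequences before the start are shown for the largest movers, for Nfkbia and for Birc3 as the neighbour of Birc2, as far as they lie outside the annotated gene. They run 5′ to 3′ on the strand of the gene, and capitals mark matches to the κB-like motif on either strand. The stretch of Birc2 holds none. Before the Tnfaip3 start shown, the first base of a match lay 126, 125, 114 and 12 bases away. For Nfkbia the matches lay 212 and 29 bases away, for Tnip3 195 and 54, and for Birc3 57. A match is a likeness of letters and not a measured site.
Tnfaip3, chr10:19015411-19015660, minus strand: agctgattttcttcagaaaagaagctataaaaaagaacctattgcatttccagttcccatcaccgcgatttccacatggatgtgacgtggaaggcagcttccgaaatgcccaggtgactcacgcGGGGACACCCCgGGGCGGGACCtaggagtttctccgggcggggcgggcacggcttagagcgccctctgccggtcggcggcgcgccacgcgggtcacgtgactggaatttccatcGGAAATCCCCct
Nfkbia, chr12:55492648-55492897, minus strand: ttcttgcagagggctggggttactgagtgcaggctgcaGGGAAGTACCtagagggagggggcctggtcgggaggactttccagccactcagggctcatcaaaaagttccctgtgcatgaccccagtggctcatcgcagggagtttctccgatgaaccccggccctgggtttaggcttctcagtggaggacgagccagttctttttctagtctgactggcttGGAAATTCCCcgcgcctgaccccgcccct
Tnip3, chr6:65590148-65590397, plus strand: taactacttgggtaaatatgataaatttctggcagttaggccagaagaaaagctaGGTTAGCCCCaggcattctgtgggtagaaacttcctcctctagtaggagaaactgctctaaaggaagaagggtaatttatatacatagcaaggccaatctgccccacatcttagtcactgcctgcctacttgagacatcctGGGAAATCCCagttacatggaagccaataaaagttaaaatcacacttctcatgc
Birc2, chr9:7837132-7837307, minus strand: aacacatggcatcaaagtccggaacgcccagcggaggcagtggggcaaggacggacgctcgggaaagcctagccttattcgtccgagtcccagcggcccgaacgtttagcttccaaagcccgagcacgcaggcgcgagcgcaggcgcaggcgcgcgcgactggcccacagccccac
Birc3, chr9:7873206-7873420, minus strand: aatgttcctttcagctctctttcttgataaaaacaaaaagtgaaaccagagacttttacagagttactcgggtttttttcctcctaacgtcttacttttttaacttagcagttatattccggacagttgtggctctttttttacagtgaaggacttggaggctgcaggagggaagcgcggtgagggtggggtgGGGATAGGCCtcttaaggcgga

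The genes of A20, its binding proteins and CYLD held the members' largest rise and a fall of nearly the same size. Tnfaip3, which encodes the ubiquitin-editing enzyme A20 that shuts off signalling from TNF and Toll-like receptors, ranged from 8.07 to 8.33 with a median of 8.26 in vehicle. In dexamethasone it ranged from 8.68 to 9.16 with a median of 8.98. Every dexamethasone array lay above every vehicle array. The mean rise was 0.72 on the log2 scale (SE 0.07), a 1.65-fold change with an adjusted p of 0.000214, seen in 6 of 6 cultures.

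Tnip3, which encodes the A20-binding protein ABIN-3, went the other way. Whether ABIN-3 acts as a brake in these mouse cells was not tested. It ranged from 8.46 to 8.77 with a median of 8.65 in vehicle, and from 7.82 to 8.13 with a median of 7.93 in dexamethasone. The groups did not overlap, and Tnip3 was lower in 6 of 6 cultures. The change was -0.69 (SE 0.06), a 1.61-fold fall with an adjusted p of 9.14e-05. Its relatives Tnip1 and Tnip2, which encode ABIN-1 and ABIN-2, did not pass, at -0.15 (adjusted p = 0.143) and 0.08 (adjusted p = 0.489). After quantile normalization Tnip1 passed, at -0.198 with an adjusted p of 0.0467. The difference of changes within cultures was 0.54 for Tnip1 minus Tnip3 and 0.77 for Tnip2 minus Tnip3, positive in all 6 cultures for both. Each had an exact two-sided sign-flip p of 0.0312, the smallest that 6 cultures can give, and 0.045 after adjustment over the 23 pairs of related members compared. Of the 23 pairs, 16 had an adjusted p under 0.05, all with this same exact p and adjusted value. The adjusted value thus depends on how many pairs were formed, and many pairs share a gene. Pairs of uncalled members reached it as well, such as Birc3 minus Xiap (-0.14) and Tnip1 minus Tnip2 (-0.23). All pairs, here and below, were compared after the changes of their members had been seen, so their p-values are descriptive only.

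Cyld, a deubiquitinase that removes the chains on which the kinases assemble, rose from a vehicle range of 9.73 to 10.05 to a dexamethasone range of 9.94 to 10.36, with medians of 9.94 and 10.13. The groups overlapped, and culture 6 was the lowest array in both. The rise was 0.23 (SE 0.05, adjusted p = 0.0297, higher in 6 of 6 cultures). This call was lost without the block (adjusted p = 0.0727), after quantile normalization (0.0641), and without culture 2, 3, 4 or 6 (0.0799, 0.0912, 0.0922 and 0.0696).

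Among the IκB family, Nfkbia rose. It encodes IκBα, the inhibitor that is degraded first when the pathway fires. Nfkbia ranged from 9.09 to 9.51 with a median of 9.35 in vehicle and from 9.56 to 9.93 with a median of 9.71 in dexamethasone. The ranges did not overlap, though culture 6 alone went up by only 0.09, while the other 5 went up by 0.34 to 0.55. The mean rise was 0.42 (SE 0.07), 1.34-fold, with an adjusted p of 0.00452. The call was lost without cultures 2 and 3 together (0.371, adjusted p = 0.0684).

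The other inhibitors did not pass. Nfkbib, which encodes IκBβ, differed by -0.03 with a 95% interval from -0.13 to 0.07. Nfkbie, for IκBε, differed by -0.10 below the control median. The nuclear family members Nfkbiz and Bcl3, which act as cofactors of NF-κB on chromatin, differed by 0.01 (95% interval -0.13 to 0.15) and 0.11 (-0.04 to 0.26). Bcl3 lay above the control median on only 0 of 6 vehicle and 2 of 6 dexamethasone arrays, so a change may not show. Nfkbia exceeded Nfkbib in its change by 0.45 in the mean, from 0.07 to 0.62 over the 6 cultures (exact two-sided sign-flip p = 0.0312, 0.045 adjusted over the 23 pairs).

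Of the NF-κB subunits, only Rel passed among the 4 measured. Rel encodes c-Rel, an activating subunit best known from lymphocytes. It ranged from 7.73 to 8.14 with a median of 7.95 in vehicle and from 7.47 to 7.88 with a median of 7.71 in dexamethasone. The groups overlapped, but within each of the 6 cultures the dexamethasone array was lower, by 0.14 to 0.43. The change was -0.24 (SE 0.05), with an adjusted p of 0.0159, and -0.239 without the block with an adjusted p of 0.0824.

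Rela, which encodes the main activating subunit p65, ranged from 11.82 to 12.22 in vehicle and from 12.06 to 12.25 in dexamethasone, and differed by 0.14 (SE 0.06, adjusted p = 0.192), positive in 5 of 6 cultures. Relb and Nfkb2, the pair of the non-canonical branch, differed by -0.14 (SE 0.04, adjusted p = 0.0635) and -0.13 (SE 0.06, adjusted p = 0.217). Relb did not overlap between groups, with 6.63 to 6.78 in vehicle and 6.51 to 6.58 in dexamethasone, and lay just outside the threshold. It passed without the block (adjusted p = 0.0453), with culture as a random effect (0.0233) and after quantile normalization (0.0293). Rel minus Rela differed by -0.37 in its changes and was negative in all 6 cultures (exact two-sided sign-flip p = 0.0312, 0.045 adjusted over the 23 pairs). The other pairs that held Rel did not pass. Rel minus Relb was -0.10 (-0.30 to 0.05, adjusted exact p = 0.12) and Nfkb2 minus Rel was 0.11 (-0.16 to 0.40, adjusted exact p = 0.395). Nfkb2 minus Rela was -0.27 and Rela minus Relb was 0.28, each of the same sign in all 6 cultures (adjusted exact p = 0.045). Among the subunits, only the pairs that held Rela thus reached this value. These pairs share the values of Rela, which itself did not pass in limma, so they are described only. Of all members, 7 of 35 had groups that did not overlap, beside 6.73% of all tested genes: Tnfaip3, Tnip3, Nfkbia, Relb, Ikbkg, Tnfrsf1b and Birc2. The same direction in all 6 cultures was seen in 13 of 35 members, beside 19.5% of all tested genes.

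None of the 6 kinase genes measured passed in limma, and 2 of them had an unadjusted p under 0.05. Ikbkg, which encodes the regulatory subunit NEMO of the IκB kinase complex, came closest. It ranged from 7.83 to 7.93 with a median of 7.91 in vehicle and from 7.98 to 8.24 with a median of 8.03 in dexamethasone, higher in 6 of 6 cultures. Its difference was 0.17 (SE 0.05, adjusted p = 0.0548). It passed without the block (adjusted p = 0.0434), with culture as a random effect (0.023), under both stricter filters on low values (0.0358 and 0.0273), and with a floor at the control median (0.0207). The catalytic subunit gene Ikbkb differed by 0.10 (95% interval -0.01 to 0.21), and the related kinase gene Ikbke by -0.06 (-0.15 to 0.04). Ikbke was dim, above the control median on 3 of 6 vehicle and 1 of 6 dexamethasone arrays. Map3k7, which encodes TAK1, the kinase that activates the complex, differed by -0.13 (adjusted p = 0.130), and -0.177 after quantile normalization, where it passed with an adjusted p of 0.0458. Map3k8 and Map3k14, the genes of the kinases TPL2 and NIK, lay below the control median on all arrays.

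Both receptors for TNF rose. Tnfrsf1a encodes the widely expressed receptor that signals through a death domain, and Tnfrsf1b encodes the second receptor, more restricted to blood and endothelial cells. Tnfrsf1a ranged from 5.58 to 6.09 with a median of 5.93 in vehicle and from 6.07 to 6.41 with a median of 6.28 in dexamethasone. It was higher in 6 of 6 cultures, but 0 of 6 vehicle arrays and 3 of 6 dexamethasone arrays lay above the control median. The rise was 0.37 (SE 0.06, adjusted p = 0.00455), and 0.091 (adjusted p = 0.24) with values floored at the control median. Without cultures 2 and 3 together it was 0.32 with an adjusted p of 0.066.

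Tnfrsf1b ranged from 6.12 to 6.43 with a median of 6.30 in vehicle and from 6.44 to 6.66 with a median of 6.51 in dexamethasone. The groups just missed each other, and 5 of 6 vehicle arrays and 6 of 6 dexamethasone arrays lay above the control median. The rise was 0.24 (SE 0.06, adjusted p = 0.0314, 6 of 6 cultures). It was lost without culture 2, 3 or 4 (adjusted p = 0.0684, 0.089 and 0.0951) and after quantile normalization (0.0517).

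Of the adaptors that link receptors to the kinases, Traf5 fell. Traf5 encodes a TRAF protein that serves CD40 and related receptors. It ranged from 8.73 to 9.13 with a median of 8.95 in vehicle and from 8.44 to 8.80 with a median of 8.68 in dexamethasone. The groups overlapped, and cultures 2 and 6 fell by only 0.06 and 0.03, against 0.33 to 0.48 in the other 4. The change was -0.28 (SE 0.07, adjusted p = 0.0353), the call nearest to the threshold on its passing side. It was lost without the block (adjusted p = 0.0505), after median centring (0.0625), and without culture 1, 3, 4 or 5 (0.0869, 0.103, 0.0971 and 0.0828).

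Tradd, the first adaptor on the death-domain receptor, differed by 0.16 (95% interval 0.01 to 0.31, adjusted p = 0.163). Traf6, the adaptor of Toll-like and interleukin 1 receptors, differed by 0.04 (-0.08 to 0.15), Traf2, the adaptor of the TNF receptors, by -0.08 (-0.20 to 0.03), and Traf1, an inducible relative, by 0.08 (-0.07 to 0.23). Traf1 was dim, above the control median on 3 of 6 vehicle and 4 of 6 dexamethasone arrays. Traf5 minus Traf6 differed by -0.31 in its changes, and was negative in all 6 cultures (exact two-sided sign-flip p = 0.0312, 0.045 adjusted over the 23 pairs). Traf1 minus Traf5 was 0.36 (-0.08 to 0.66) and did not pass (adjusted exact p = 0.085).

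Birc2 had the largest change of all 35 members. It encodes cIAP1, a ubiquitin ligase that builds chains on RIPK1 at the TNF receptor and holds the kinase NIK low. Birc2 ranged from 13.33 to 13.75 with a median of 13.41 in vehicle and from 12.43 to 12.93 with a median of 12.59 in dexamethasone. The lowest vehicle array was above the highest dexamethasone array, and the fall was similar in all 6 cultures, from 0.72 to 1.02. The change was -0.86 (SE 0.05), a 1.82-fold fall with an adjusted p of 1.24e-05. By p it ranked 92 among the 24265 genes tested.

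Birc3, which encodes cIAP2 and is the neighbour of Birc2 on chromosome 9, ranged from 8.18 to 8.43 in vehicle and from 8.03 to 8.24 in dexamethasone. Its difference was -0.15 (SE 0.06, adjusted p = 0.142, lower in 5 of 6 cultures). It passed after quantile normalization, at -0.208 with an adjusted p of 0.0294. Xiap, the direct caspase inhibitor of the family, differed by -0.01 with a 95% interval from -0.12 to 0.10. Birc2 minus Birc3 differed by -0.71 in the changes, from -0.88 to -0.41, and Birc2 minus Xiap by -0.86, from -0.95 to -0.59. Both were negative in all 6 cultures, with an exact two-sided sign-flip p of 0.0312, and 0.045 adjusted over the 23 pairs.

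Of the 5 target genes on the list, Tnfaip2 fell. Tnfaip2, a TNF-induced gene linked to membrane nanotubes, ranged from 7.12 to 7.73 with a median of 7.40 in vehicle and from 7.01 to 7.21 with a median of 7.10 in dexamethasone. The groups overlapped only through culture 2, whose vehicle array was the lowest, and each culture was lower with dexamethasone. The change was -0.30 (SE 0.06, adjusted p = 0.0112), and the adjusted p was 0.0598 with all 72688 probe sets tested. Sod2, the mitochondrial superoxide dismutase, differed by 0.03 (95% interval -0.08 to 0.14). Tnfaip8, an apoptosis regulator, differed by 0.08 (-0.02 to 0.18) and was higher in 6 of 6 cultures. The adhesion molecule Icam1 and the dendritic cell marker Cd83 were below the control median on all arrays. A second probe set of Cd83 had means of 4.46 and 4.59, also dim.

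**Figure D2:**
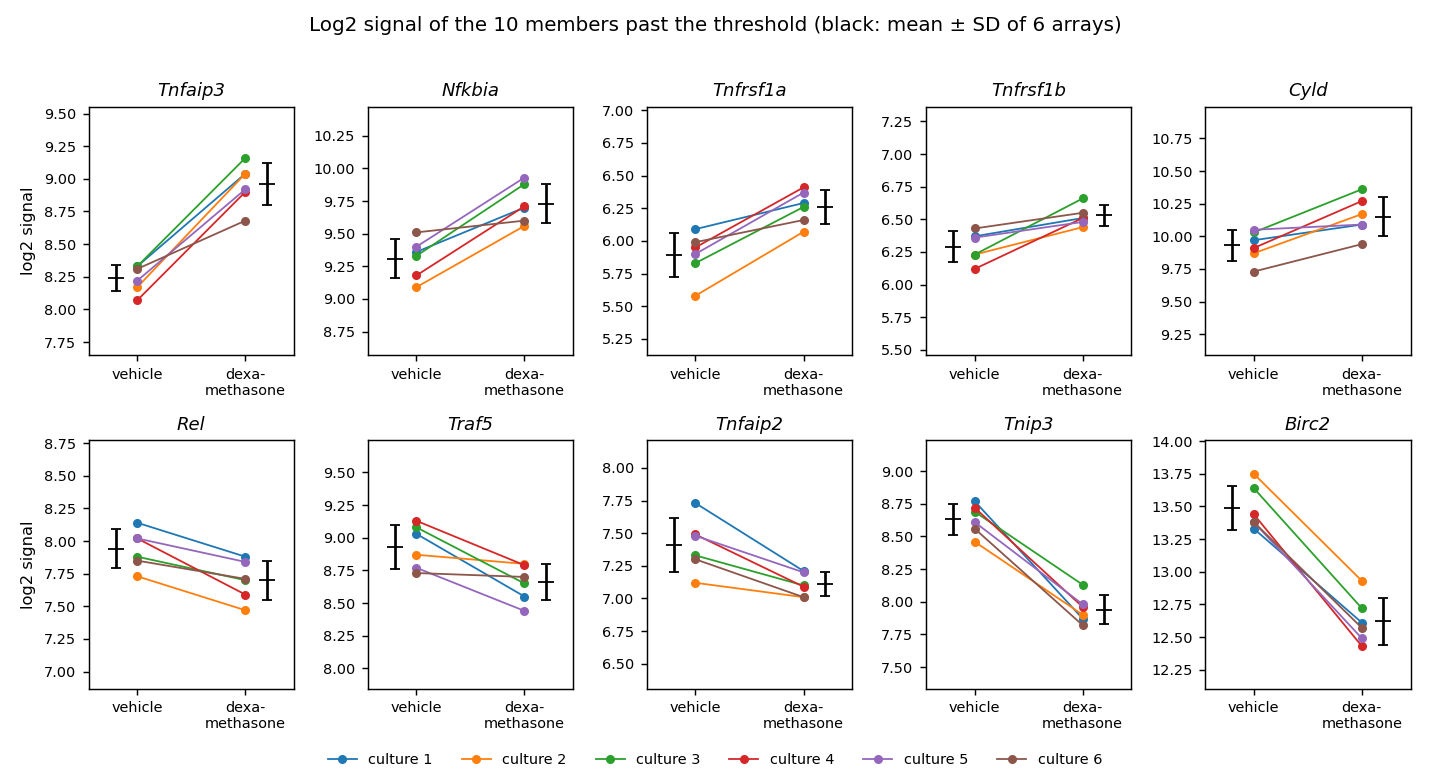
Log2 signal (y axis, the same span in every panel but a different offset) of the 10 members past the threshold, in vehicle and dexamethasone. Coloured lines join the 2 arrays of a culture (1 to 6 as numbered in the text), and black bars give the mean and SD of 6 arrays. Within each panel all lines slope the same way, with shallow lines for culture 6 in Nfkbia and Traf5, culture 2 in Traf5 and culture 5 in Cyld.

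The cultures did not contribute alike to the called members. For 6 of the 10 the smallest change fell in culture 6 (number 8 in the labels). Over all 2900 called genes the smallest change fell there in 19.3%, in culture 5 in 21.1% and in culture 2 in 19.2%. The 10 members share the same arrays and are not replicates. The smallest change of Birc2 was in culture 1, of Tnfaip2 in culture 2, of Cyld in culture 5 and of Tnip3 in culture 3. Birc2, Tnfaip3 and Tnip3 kept their call under all 18 other settings tried. Without cultures 2 and 3 together 4 members passed: Birc2, Tnfaip3, Tnip3 and Tnfaip2.

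Other genes of the pathway gave the members a context, to be read beside the 12.0% of all tested genes that were called. Among 18 tested genes of Toll-like and interleukin 1 receptors and their adaptors, 6 rose and none fell in limma, where 2 were lower at an unadjusted p under 0.05. The calls were 33.3% of this list, and its median change was 0.077. Of the 6 that rose, Tlr8 and Ticam2 lay below the control median on all 12 arrays. Irak3 had the largest rise. It encodes IRAK-M, a kinase-like inhibitor that blocks signalling below Toll-like receptors, and it went from a vehicle range of 10.43 to 10.65 to a dexamethasone range of 12.20 to 12.59. This was a 3.60-fold rise (1.85, SE 0.07, adjusted p = 9.17e-07). Tlr7, the receptor for single-stranded RNA, ranged from 9.89 to 10.45 in vehicle and from 11.50 to 11.96 in dexamethasone, a 3.01-fold rise (1.59, SE 0.05, adjusted p = 4.65e-07). Neither gene overlapped between groups. Tollip, an adaptor that dampens interleukin 1 signalling, rose by 0.52, and Ticam1, the adaptor TRIF, by 0.37. The central adaptor Myd88 differed by -0.10 (adjusted p = 0.202).

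Of 24 other TNF superfamily receptors tested, 2 rose and 2 fell (16.7%, near the 12.0% of all tested genes). The median change of these receptors was -0.029. Tnfrsf26, a receptor of the family found in mice, fell by 0.82 (SE 0.10, adjusted p = 0.000856), Tnfrsf22 by 0.24, and the ectodysplasin receptor Eda2r rose by 0.30. Fas rose by 0.42 (adjusted p = 0.0488 in limma), though in only 5 of 6 cultures. Tnfrsf22 and Tnfrsf26 are close relatives, and their probe sets may share signal. Of 9 TNF superfamily ligands tested, 1 rose and none fell in limma, where 2 were lower at an unadjusted p under 0.05. This was 11.1% of the ligands, near the share of all tested genes, and their median change was -0.084. Tnfsf4, which encodes OX40 ligand, a costimulator of T cells, ranged from 10.09 to 10.60 in vehicle and from 10.95 to 11.28 in dexamethasone, 1.75-fold higher (adjusted p = 3.69e-05). Tnf itself ranged from 6.39 to 6.95 in vehicle and from 6.40 to 6.64 in dexamethasone, -0.17 apart in the mean (adjusted p = 0.223).

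Of 37 other signalling components tested, 2 rose and 4 fell (16.2%, near the 12.0% of all tested genes). The median change of these components was 0.052. The A20 partner Rnf11 fell by 0.27 and the ubiquitin ligase Peli1 by 0.22, while Pdlim2, which promotes degradation of nuclear p65, rose by 0.22 and Traf7 by 0.20. Of 32 other NF-κB target genes tested, 6 rose and 4 fell (31.2%), with a median change of -0.006. The chemokine Cxcl3 ranged from 10.08 to 10.63 in vehicle and from 7.66 to 8.25 in dexamethasone, and fell by 2.29 on the log2 scale (4.88-fold, SE 0.12, adjusted p = 7.18e-06). The monocyte chemokine Ccl2 fell by 0.70 and the T cell chemokine Ccl5 by 0.38. The acute phase gene Saa3 rose by 0.63, with 0 of 6 vehicle and 2 of 6 dexamethasone arrays above the control median. Other rises lay above that median on all arrays: Myc (0.38), Bcl2l1 (0.35), Cd44 (0.29) and Il15 (0.21). Interleukin 1 beta, Il1b, differed by 0.07 (adjusted p = 0.424).

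**Figure D3:**
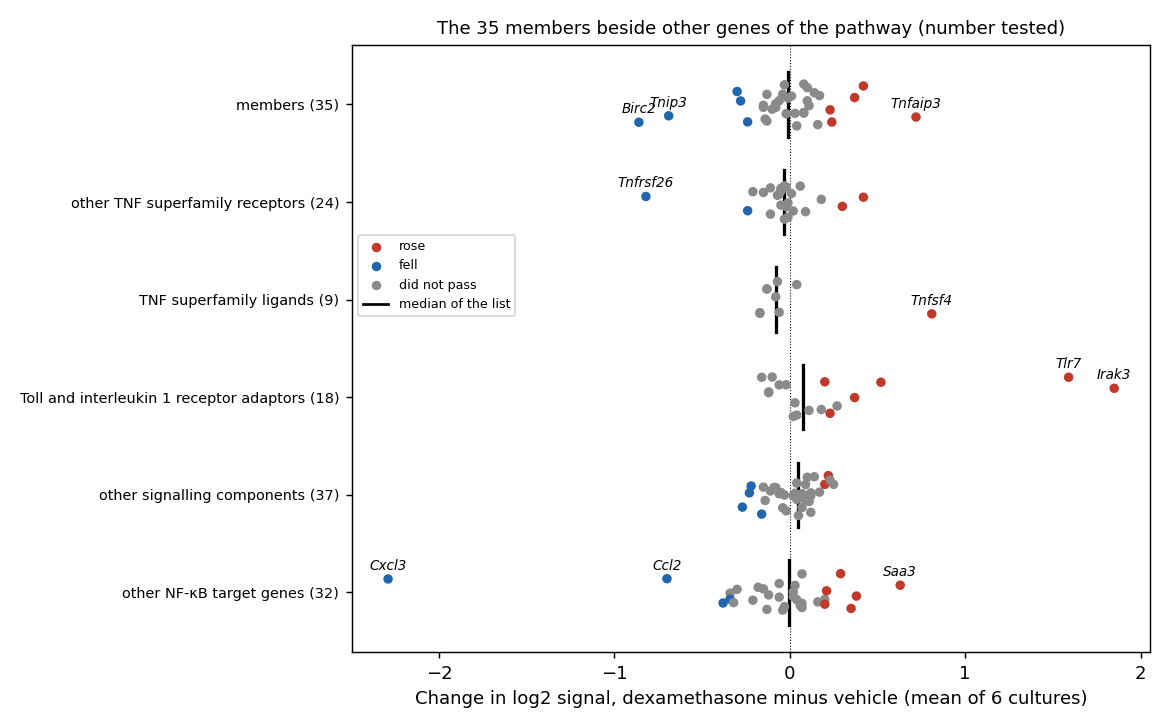
Mean change in log2 signal over 6 cultures (x axis) for each tested gene of the members and of 5 lists of other pathway genes, with the number tested in brackets. Red points rose, blue points fell, grey points did not pass, and black lines are list medians. Irak3 and Tlr7 lie far to the right, Cxcl3 far to the left, and the medians lie near 0.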

How the data were processed

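RNA was measured on 12 1-colour arrays. The authors' deposited log2 values of 72688 probe sets were used as given. How they were normalized and summarized is not stated by the labels, and the unit was taken from the numbers themselves (2.07 to 19.93, array medians 5.57 to 5.67). Probe sets were named from GEO's platform annotation, with symbols updated through RefSeq gene numbers. A repeated symbol counted as 1. Genes above the 25th percentile of their array on at least 6 arrays were tested (24265). limma 3.58.1 in R 4.3.3 (lmFit, eBayes, two-sided, Benjamini-Hochberg over all genes tested) had culture as a block, since the labels' protocol says that each culture was divided. Deviations from group means correlated at 0.049 to 0.247 between arrays of the same culture, over 0.1 in 4 of 6 pairs, and 4 of 6 vehicle and 3 of 6 dexamethasone arrays matched their own culture best. The pairing thus rests on the protocol. On simulated data with 200 changed genes, 43.3% of changes of 0.3, 82.1% of 0.6 and 98.5% of 1 were recovered. The simulation had normal noise and far fewer changed genes than the 2900 called in the data, which makes its adjusted threshold stricter. It thus checks the fit, and its shares are not the power of the fit on these data. The number of arrays limits the precision.

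All 39 genes of the rule are named. Of each other pathway list, up to 4 genes past the threshold were named by rule, besides the glucocorticoid targets. These had the largest changes among genes of the same direction in 6 cultures. Tnf, Il1b and Myd88 were named after their values were seen. So were Fas, Tlr8, Ticam2, Myc, Bcl2l1, Cd44, Il15 and the single cell type markers. The members and lists were chosen with earlier results of these data known. Alternatives concerned the block, scaling, filters, floor, probe sets, eBayes options and left-out cultures. Cultures 2 and 3 were left out together because an earlier analysis of these data did so.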

Additional observations from a re-analysis of the deposited data

Results flagged for a closer look

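In 5 of the 70 groups of 6 arrays that the 35 members form, 1 array stood apart from the rest by Dixon's criterion at the 95% level. Chance gives this in about 1 of 20 groups. Relb in vehicle was 6.78 in culture 3, and the next array was 6.68. Nfkbib in vehicle was 9.14 in culture 5, below the next at 9.18. Nfkbiz in vehicle was 7.96 in culture 1, above the next at 7.71. Map3k8 in dexamethasone was 5.62 in culture 3, below the next at 5.81, and lay below the control median. Birc3 in dexamethasone was 8.03 in culture 6, below the next at 8.18. None of these 5 genes passed the threshold.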

How the results depend on the processing

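The 35 members were refitted under 18 other settings, which gave 619 values. No called member changed direction in any of them, and 29 of their values lost the call. Of the 25 members not called, 20 were called under no setting. Birc2, Tnfaip3 and Tnip3 kept their call throughout. Without the replicate block 9 members passed, 5 higher and 4 lower. Rel, Traf5 and Cyld were lost there, and Relb and Ikbkg were gained. Leaving out 1 culture gave 7 to 9 members (3 to 5 higher, 4 to 5 lower) and 1878 to 2331 genes in all (1164 to 1520 higher, 712 to 853 lower). All genes moved most without culture 3 (1878), with fewest falls without culture 6 (712), and 3 member rises were left without culture 2, 3 or 4. Without cultures 2 and 3 together 4 members passed (1 higher, 3 lower), and 1269 genes in all (731 and 538). Quantile normalization gave 3 higher and 9 lower members and 1738 lower genes, and median centring 726 lower genes. With unnamed and control probe sets fitted as well, 5 members passed (3 higher, 2 lower), without Rel, Traf5, Cyld, Tnfrsf1b and Tnfaip2, and 639 probe sets were lower. That setting adjusts over 72688 probe sets. The cause of the other shifts was not tested.

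Uncalled members that changed sign stayed near 0. After quantile normalization Nfkbiz was -0.043, Traf6 -0.025, Cd83 0.009 and Sod2 -0.021, and after median centring Xiap was 0.013. With a floor at the control median Nfkbie, Map3k14, Cd83 and Icam1 were each 0.037, the shift of the floor itself, and Ikbke was 0.021. Leaving out 1 culture gave -0.032 to 0.017 for Xiap (above 0 without culture 1, 4 or 5), -0.032 to 0.049 for Nfkbiz (below 0 without culture 2 or 4) and -0.058 to 0.02 for Cd83 (above 0 without culture 3). Without cultures 2 and 3 Nfkbiz was -0.047, Map3k14 0.009, Tnip2 -0.005 and Cd83 0.034. Signal near the negative controls limits Tnfrsf1a, Tnfrsf1b, Bcl3, Ikbke, Traf1, Relb and the 5 members below the control median on all arrays.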
